A study of Mus musculus with 60 samples.

Results

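Lactobacilli and bifidobacteria were followed through the gut, lung and mouth of male mice given plastic nanoparticles. They were taken as every sequence feature, a distinct 16S rRNA gene amplicon, whose lineage in the deposited taxonomy names the family Lactobacillaceae or Bifidobacteriaceae. This rule found 140 of the 8574 features, 21 of them Bifidobacteriaceae and the others Lactobacillaceae. PET mice were gavaged for 28 days with nanoparticles of polyethylene terephthalate, a polyester used in drink bottles, each day taking 0.5 mg in a volume of 0.1 ml. Control mice were not exposed, and whether they were gavaged with a vehicle is not stated in the sources used here. The design text gives 12 mice, 6 in each arm. Stool after 1 week, and stool, colon tissue, lung tissue and oral swabs at day 28, each gave 6 PET and 6 control libraries, 60 in all.

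Lactobacilli ferment sugars mainly to lactate and are common residents of the rodent stomach and intestine, from where they pass into stool. Bifidobacteria ferment sugars to acetate and lactate, and several species live in the human intestine. The name Lactobacillus is used here in the broad sense of the taxonomy table: it covers bacteria since moved to other genera, such as Limosilactobacillus reuteri and Ligilactobacillus murinus. One bacterial genome can carry several copies of the 16S gene that differ slightly, so a feature is not a strain.

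The deposited table gives counts, and a share below is a percentage of the prokaryote counts of 1 library. Such shares are relative, so a lower share of one taxon and a higher share of the others cannot be told apart. Library totals ran from 16521 to 1083575 counts in stool, from 59063 to 280575 in colon, from 10543 to 326834 in lung and from 119454 to 428830 in oral swabs. DNA of stool and oral swabs came from one kit and DNA of colon and lung from another, so kit and site cannot be told apart for colon or lung against stool. The labels do not say which libraries came from the same mouse, so nothing was paired and p-values measure the spread between the libraries of a group. Means carry SDs. Log2 differences from edgeR carry a standard error derived from its F statistic, as the size of the difference over the square root of F. It thus restates that test. Intervals and limits on shares cover counting error only, since PCR copies of 1 molecule can be counted more than once.

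The 140 features held 667494 counts, 3.91% of all prokaryote counts. All Lactobacillaceae features were assigned to Lactobacillus. Of the 21 Bifidobacteriaceae features, 20 were Bifidobacterium and 1 was Gardnerella. Most features were rare: 77.1% of the 140 had counts in 1 library only, beside 73.8% of all prokaryote features, and these held 0.598% of the members' counts. Only 27 were detected in 3 or more libraries.

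A few features carried nearly all the signal. Lactobacillus feature 1, which has no species name, held 44.4% of the members' counts and was detected in 59 of 60 libraries. Lactobacillus feature 2, also without a species name, held 12.9% and was detected in 36 libraries. Features are numbered within each name by their total count. Lactobacillus reuteri, a gut resident of rodents and humans, held 31.9% of the members' counts over 14 features, and its feature 1 alone held 12.6% in 53 libraries. Lactobacillus murinus, a typical mouse lactobacillus, held 5.47% over 2 features. Bifidobacterium adolescentis, a species of the adult human colon, held 2.81% in 1 feature that was detected in 43 libraries.

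Species names rest on a classifier and differ in certainty. A species was named for 47 of the 140 features, under 21 species labels. The classifier's confidence, a fraction with a highest possible value of 1, ran from 0.703 to 0.966 over the L. reuteri features and from 0.757 to 0.826 over the L. murinus features, and was 0.746 for the B. adolescentis feature. It ran from 0.979 to 1 over the 79 Lactobacillus features with no species name, whose confidence refers to the genus. The 5 features named Lactobacillus ruminis had confidences near 1, as did the 2 features named Bifidobacterium bifidum, at 0.998.

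**Figure D1:**
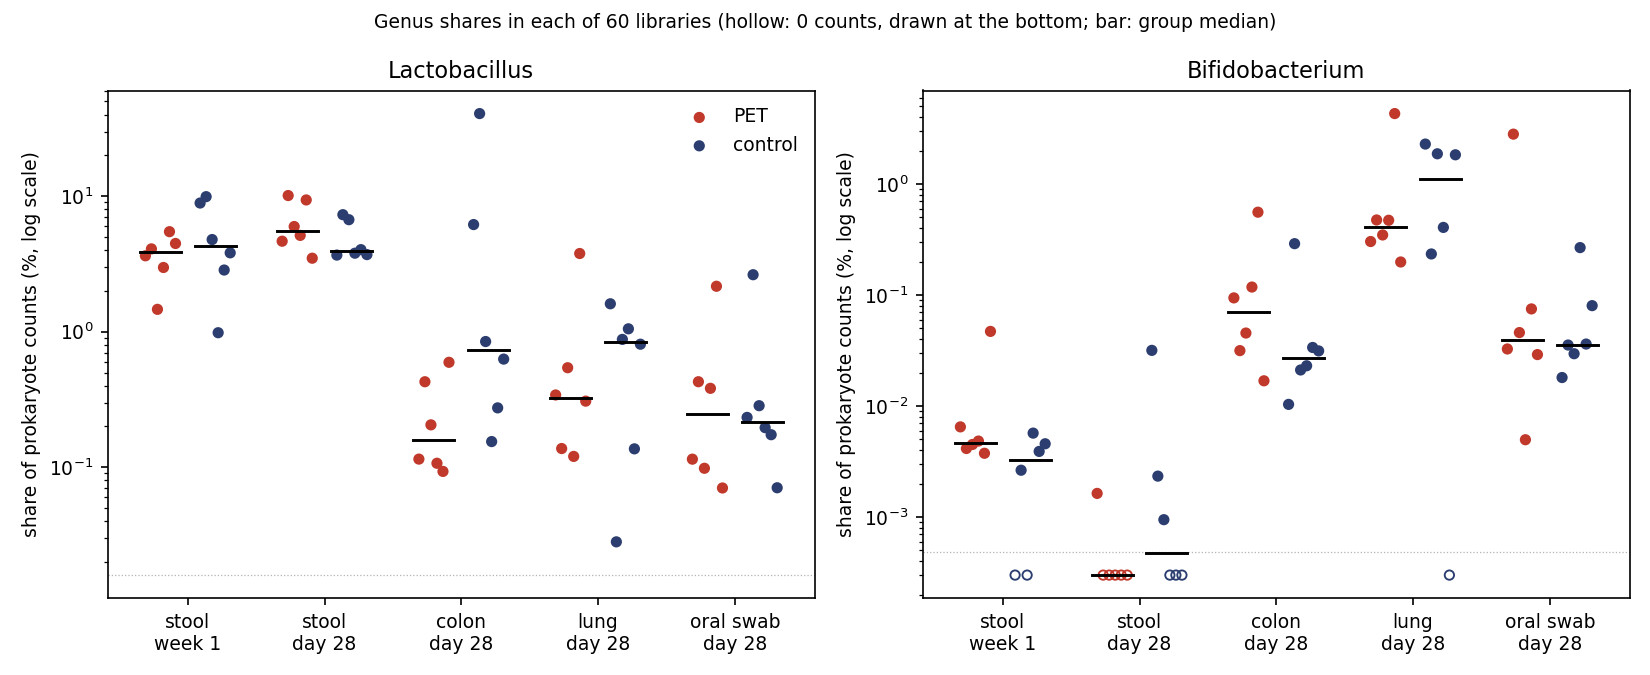
Share of prokaryote counts (%, log scale) of Lactobacillus and Bifidobacterium in each library, by sample type, with PET left of control in each pair; each point is 1 library, bars are group medians, and hollow points at the bottom are libraries with 0 counts. Lactobacillus lay between 3.49 and 10.1% in all 12 day 28 stool libraries and mostly below 1% in colon, lung and oral swabs, while Bifidobacterium had no count in 8 of the 12 day 28 stool libraries and was detected in 11 of 12 lung libraries.

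Lactobacilli made up several percent of the bacteria in stool. At day 28 the genus made up 3.49 to 10.1% of PET stool libraries (median 5.56%, mean 6.46% ± 2.68) and 3.68 to 7.31% of control stool libraries (median 3.92%, mean 4.87% ± 1.67; n = 6 in each arm here and below). After 1 week it made up 1.46 to 5.47% in PET (median 3.86%, mean 3.69% ± 1.37) and 0.983 to 9.92% in control (median 4.30%, mean 5.21% ± 3.50). The arms overlapped at both times. The log2 difference of PET over control was 0.47 ± 0.31 at day 28 (edgeR's quasi-likelihood test, adjusted p = 0.750) and -0.78 ± 0.44 after 1 week (adjusted p = 0.639).

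Bifidobacteria were close to the detection limit in stool. At day 28 PET stool held 4 counts of Bifidobacterium in 1 of 6 libraries, against counts in 3 of 6 control libraries with a highest share of 0.0317%. After 1 week the genus was detected in 6 of 6 PET libraries (median 0.00467%, highest 0.0470%) and in 4 of 6 control libraries (highest 0.0057%). The log2 difference between PET and control was -4.45 ± 2.19 at day 28 (edgeR adjusted p = 0.552) and 1.61 ± 1.11 after 1 week (adjusted p = 0.712). Leaving out each library in turn gave -7.64 (without PET library 1) to -1.30 (without control library 1) at day 28, and 0.25 (without PET library 6) to 2.11 (without control library 4) after 1 week.

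No lactobacillus or bifidobacterium passed the test between PET and control stool. At feature level 16 of the 140 members had enough counts to be tested after 1 week and 14 at day 28, and edgeR called 0 of them, as it called 0% of all 728 and 737 features tested. At an unadjusted p under 0.05 the members again gave 0 at both times, against 58 of the 728 and 43 of the 737. The members' median log2 difference was 0.50 at day 28, beside 0.06 over all features, and -0.58 after 1 week, beside 0.29.

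The single taxa of day 28 stool overlapped between the arms in the same way. Lactobacillus feature 1 held 1.63 to 5.37% of day 28 PET stool (median 2.99%) and 0.0579 to 4.42% of day 28 control stool (median 2.21%). L. reuteri as a whole held 1 to 4.03% in day 28 PET stool (median 2.31%) and 1.12 to 2.56% in control (median 1.44%). L. murinus held 0.0821 to 0.795% in PET (median 0.208%) and 0.0512 to 0.787% in control (median 0.322%).

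The second unnamed Lactobacillus feature had many counts in some day 28 stool libraries and none in others. Its share at day 28 was 0 to 1.05% in PET stool, where 2 of 6 libraries had no count, and 0 to 2.25% in control stool. After 1 week all 12 libraries held it, with 0.317 to 1.65% in PET and 0.0803 to 4.68% in control. It stood above feature 1 in 0 PET and 1 control library at day 28, and in 2 PET and 3 control libraries after 1 week. The control library at day 28 in which it led, library 4, held 2.25% of feature 2 and 0.0579% of feature 1.

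**Figure D2:**
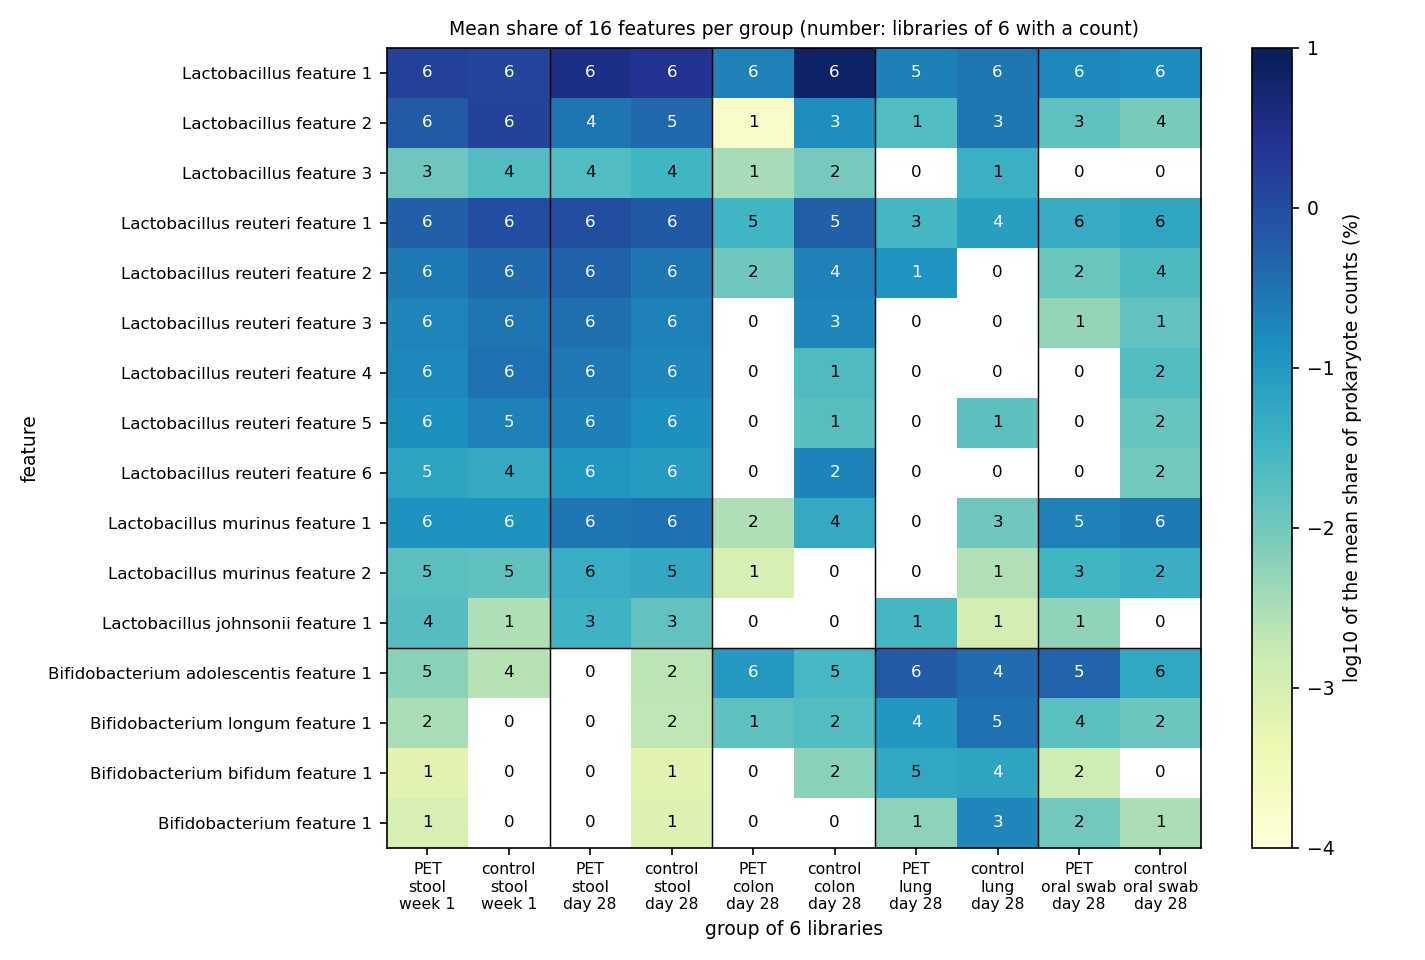
Mean share of prokaryote counts (colour, log10 of the percentage) of 16 named features in the 10 groups of 6 libraries, with PET left of control for each sample type; the number in a cell is how many of the 6 libraries held the feature, and white cells hold 0 counts. The highest mean of a cell is that of Lactobacillus feature 1 in control colon, 6.75%, where library 2 alone held 33.3%, and B. adolescentis feature 1 stands at 0.638% in PET lung and 0 in PET stool at day 28.

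Change over time in stool was fitted over all 24 stool libraries. In PET mice Lactobacillus was at a mean of 6.46% at day 28 against 3.69% after 1 week, a log2 difference of 1.09 ± 0.42 (edgeR unadjusted p = 0.0161, adjusted p = 0.116). In control mice the means were 4.87% at day 28 and 5.21% after 1 week, a log2 difference of -0.39 ± 0.42 (adjusted p = 0.699). The difference between the arms' changes was 1.48 ± 0.59 (adjusted p = 0.122). None of these passed the threshold of 0.05.

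Bifidobacterium in PET stool had 4 counts over the 6 libraries at day 28 and 613 after 1 week, 509 of them in library 6. Its log2 difference was -5.30 ± 1.90 (edgeR unadjusted p = 0.00989, adjusted p = 0.116), and DESeq2 called it with an adjusted p of 0.0213. In control stool it was 0.34 ± 1.57 (adjusted p = 0.952), and the difference between the arms' changes was -5.65 ± 2.38 (adjusted p = 0.132). B. adolescentis feature 1 was detected in 0 of 6 PET stool libraries at day 28 and in 5 of 6 after 1 week. Its 0 of 2342639 counts at day 28 allow a share of up to 0.000128%, at least 71.7-fold lower than the pooled share after 1 week, and at least 26.3-fold lower without week 1 library 6. edgeR did not call it (adjusted p = 0.208) and DESeq2 did (adjusted p = 0.00876).

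Among all features tested in the stool fit, 18 of the 140 members took part and edgeR called 0 in either arm's change over time and 0 in the difference between them, as it called 0% of the 964 features. At an unadjusted p under 0.05 there were 4 members in each of the 3 contrasts, against 148, 175 and 152 of all features. In PET these 4 were B. adolescentis feature 1, both common B. longum features and L. ruminis feature 5, all with negative log2 differences. DESeq2 called L. reuteri feature 7 in the control change over time (adjusted p = 3.98e-07) and in the difference between the arms (adjusted p = 0.00234), where edgeR gave adjusted p-values of 0.235 and 0.300. This feature was sparse, with counts in 6 of the 21 stool libraries that held at least 1000 counts of L. reuteri feature 1.

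Some L. reuteri features kept a similar ratio to each other across stool libraries and others did not. In the 21 stool libraries with at least 1000 counts of L. reuteri feature 1, feature 2 stood at a median of 0.488 of it, with a range of 0.247 to 0.615 and a coefficient of variation of 20.7%. Feature 3 stood at a median of 0.350 (coefficient of variation 22.8%), feature 4 at 0.341 (48.2%), feature 5 at 0.279 (50.3%) and feature 6 at 0.109 (62.3%). The ratio of feature 7, which had counts in 6 of the 21 libraries, varied most among the L. reuteri features compared, with a coefficient of variation of 185%, and feature 9 never exceeded 0.0289 of feature 1. The ratio of the 2 L. murinus features had a median of 0.159, a range of 0.141 to 0.168 and a coefficient of variation of 7.19% over 6 libraries. L. reuteri feature 1 ran from 0.147 to 1.68 of Lactobacillus feature 1, with a coefficient of variation of 90.8%, and Lactobacillus feature 2 varied by 175% against the same feature. The spread of a ratio within the label L. reuteri thus overlapped that between labels. These ratios come from features of the same libraries and describe them only.

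**Figure D3:**
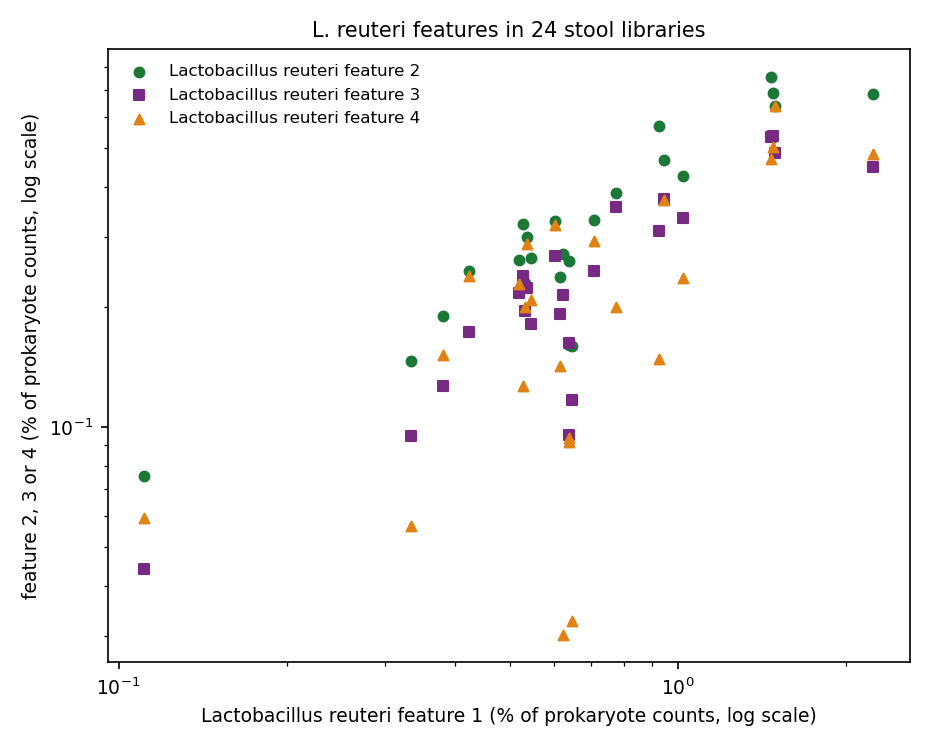
Shares of L. reuteri features 2, 3 and 4 (y axis) against that of L. reuteri feature 1 (x axis) in the 24 stool libraries, both in % of prokaryote counts on log scales; each point is 1 feature in 1 library. Features 2 (circles) and 3 (squares) climb with feature 1, with ratios that vary by 20.7 and 22.8% over the 21 libraries deep enough to measure them, and feature 4 (triangles) scatters more widely, at 48.2%.

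In colon tissue Lactobacillus was lower in PET than in control mice, and 1 control library set much of that difference. Lactobacillus held 0.115, 0.427, 0.206, 0.107, 0.0931 and 0.595% of the 6 PET colon libraries, against 6.18, 40.7, 0.847, 0.155, 0.274 and 0.628% of the 6 control libraries. Control libraries 1, 2, 3 and 6 lay above every PET library, and control libraries 4 and 5 lay within the PET range. The mean was 0.257% ± 0.208 in PET and 8.13% ± 16.1 in control. Without control library 2 (40.7%, 95% Wilson interval 40.5 to 41%) the control mean was 1.62% ± 2.56 (n = 5) and its median 0.628%, against 0.160% in PET.

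Lactobacillus was called lower in PET colon, with a log2 difference of -4.19 ± 1.23 (edgeR unadjusted p = 0.000942, adjusted p = 0.0111). Of all genera tested there, 15.6% were called, 2.13% lower and 13.5% higher. Without control library 2 the log2 difference was -2.83 and the adjusted p was 0.118. The exact two-sided permutation test gave a log2 difference of -2.75 with p = 0.0498 (n = 6 in each arm, smallest possible p = 0.00216) and an adjusted p of 0.292. Bifidobacterium was detected in all 12 colon libraries, at 0.0169 to 0.557% in PET (median 0.0698%) and 0.0103 to 0.290% in control (median 0.0272%). Its log2 difference was 0.57 ± 1.38 (edgeR adjusted p = 0.929), and the arms overlapped. The highest library of each arm set much of its mean: 0.144% ± 0.206 in PET with library 5 and 0.0612% ± 0.0430 (n = 5) without it, and 0.0239% ± 0.00927 (n = 5) in control without library 2. Without PET library 5 the log2 difference was -0.037.

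At feature level 1 of the 11 members tested in colon passed, L. reuteri feature 3, where 2.35% of all 468 features passed, 1.28% lower and 1.07% higher. It had no count in 6 PET libraries, and control libraries 1, 2 and 3 held 0.0236, 1.03 and 0.0346%. The feature thus met the filter through control libraries only and could be called lower only. The PET share of at most 0.000401%, from 0 of 748726 counts, was at least 490-fold lower than the pooled control share, and at least 36.1-fold lower without control library 2. The edgeR log2 difference of -10.31 ± 3.15 (adjusted p = 0.0460) depends on a prior count and is no bound. With 3 of 6 control libraries also at 0, the arms overlapped, and the exact permutation test gave an adjusted p of 0.873. The call was lost in 11 of the 12 fits that left out 1 library and was kept only without control library 5. In 3 of the 11, those without control library 1, 2 or 3, the feature no longer passed the filter, and over the 9 fits that tested it the adjusted p ran from 0.0489 to 0.147.

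The other colon members did not pass. Lactobacillus feature 1 held 0.0412 to 0.473% in PET and 0.0376 to 33.3% in control (edgeR log2 difference -4.34 ± 1.92, adjusted p = 0.354). Lactobacillus feature 2 had 3 counts in 1 PET library and 1441 counts in 3 control libraries (log2 difference -8.73 ± 3.05, adjusted p = 0.122). DESeq2 called this feature (adjusted p = 0.0440) and did not call L. reuteri feature 3. L. reuteri as a whole held 0.00977 to 0.116% in PET and 0.0134 to 6.31% in control, and control library 2 held 87.1% of the label's colon counts in all 12 libraries. B. adolescentis feature 1 was detected in 6 of 6 PET and 5 of 6 control libraries (log2 difference 1.62 ± 2.26, adjusted p = 0.991). The 11 members had a median log2 difference of -2.83 with 2 above 0, beside a median of 0.36 over all 468 features, and 3 members and 39 of all features had an unadjusted p under 0.05.

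**Figure D4:**
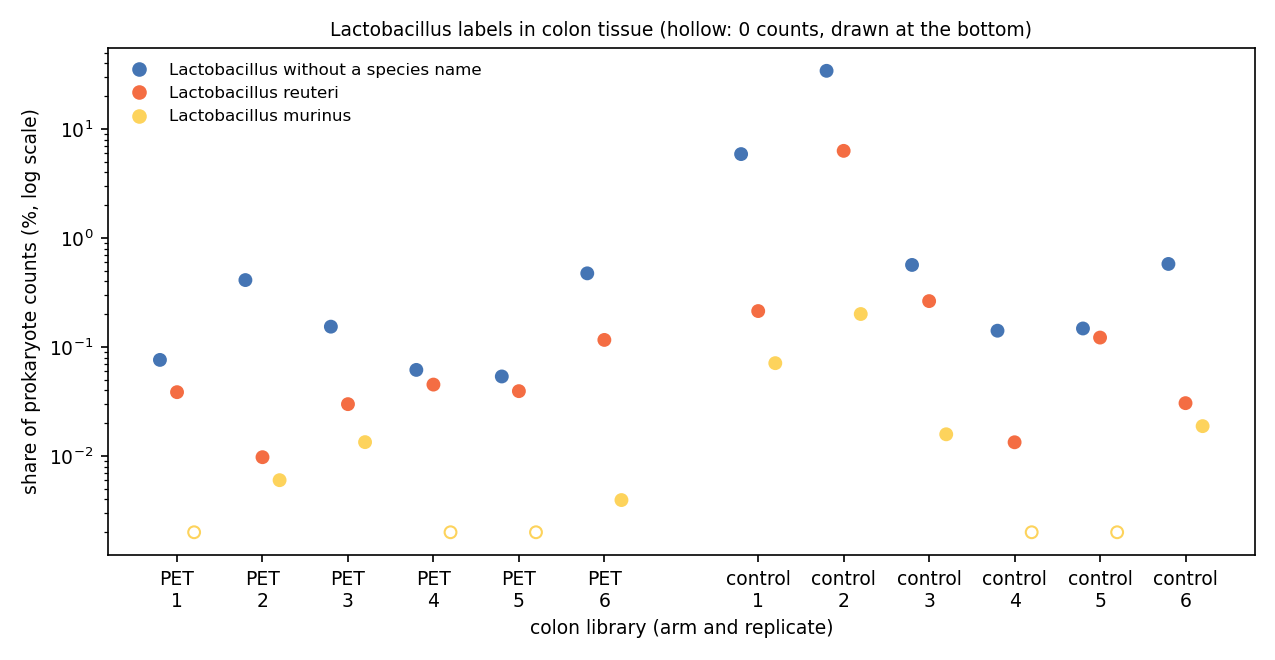
Share of prokaryote counts (%, log scale) of Lactobacillus features without a species name, L. reuteri and L. murinus in each of the 12 colon libraries, PET libraries left of control libraries; hollow points at the bottom are 0 counts. Control library 2 stands above all others for each of the 3 labels, at 6.31% for L. reuteri and 0.201% for L. murinus.

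Lung carried both genera at shares that differed widely between libraries. Lactobacillus held 0.120 to 3.78% of PET lung libraries (median 0.324%) and 0.0281 to 1.61% of control lung libraries (median 0.843%). Bifidobacterium held 0.198 to 4.31% in PET (median 0.409%) and 0 to 2.29% in control (median 1.12%), with counts in 6 of 6 PET and 5 of 6 control libraries. The control library with no count, library 5, and control library 6 carry later library numbers than all other lung libraries. No PET lung library is in that later block. PET and control overlapped for both genera. The log2 differences of PET over control were -0.58 ± 1.24 for Lactobacillus and -0.72 ± 1.31 for Bifidobacterium (edgeR adjusted p = 0.997 for both), and the sign of each turned under some of the alternatives given in the closing section.

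PET lung library 5 stood apart, with 19802 counts in all. Bifidobacterium held 4.31% of it (95% Wilson interval 4.03 to 4.60%), of which B. adolescentis was 2.91%. Lactobacillus held 3.78% (3.52 to 4.05%), and 2.19% of the library (1.99 to 2.40%) was L. ruminis, a lactobacillus of human and farm animal intestines. L. ruminis was also seen at 0.245% in PET oral swab library 2, at a highest share of 0.0412% in control lung and 0.00671% in control oral swabs, and in no colon library. In stool it had 32 counts over 4 PET and 31 over 5 control libraries after 1 week, and at day 28 none in PET and 4 in 1 control library.

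Of the 13 members tested in lung, edgeR called 0, as it called 0% of the 454 features tested, and 2 members and 54 of all features had an unadjusted p under 0.05. One was L. murinus feature 1, with no count in 6 PET libraries and counts in 3 of 6 control libraries (log2 difference -5.64 ± 2.25, adjusted p = 0.174). Its difference could be negative only. The other was Lactobacillus sakei feature 1, a species of meat and fermented food, with counts in 2 PET and 1 control library (5.17 ± 2.51, adjusted p = 0.368). The lung held the widest set of bifidobacteria. Of the 21 Bifidobacteriaceae features 17 were detected in lung and 7 of them in no other sample type, against 12 detected in oral swabs, 7 in colon, 6 in day 28 stool and 7 in week 1 stool. The share of all features found in lung only was not computed, and 77.1% of the members had counts in 1 library only. No blank or extraction controls are among the samples used here, so rare features in lung could not be set against them. Lactobacillaceae ran the other way, with 20 features detected in lung, 19 in colon, 22 in oral swabs, 52 in day 28 stool and 65 in week 1 stool. Of those 65, PET week 1 library 6, the deepest of all with 1082777 prokaryote counts, alone held 50, and the other week 1 libraries held 8 to 18 each. Without it 30 were detected in week 1 stool.

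Oral swabs held few lactobacilli in most libraries and many in a few. Lactobacillus held 0.0703 to 2.17% in PET (median 0.248%) and 0.0706 to 2.63% in control (median 0.215%), with the highest shares in PET library 5 and control library 2. L. murinus, a minor part of the genus in stool, held 0.00159 to 1.08% of PET swabs (median 0.0148%) and 0.0139 to 1.51% of control swabs (median 0.0317%). Bifidobacterium held 0.00497 to 2.81% in PET (median 0.0393%) and 0.0181 to 0.267% in control (median 0.0358%). PET library 2 alone (2.81%, 95% Wilson interval 2.76 to 2.86%) carried 90% of the oral counts of B. adolescentis. PET and control overlapped in each of these taxa.

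The log2 differences between PET and control swabs were -0.31 ± 0.89 for Lactobacillus and 0.98 ± 1.04 for Bifidobacterium (edgeR adjusted p = 0.970 for both). Without PET library 2 that of Bifidobacterium was -1.19. At feature level edgeR called 0 of 13 members, as it called 0% of the 460 features tested, and 0 members and 29 of all features had an unadjusted p under 0.05. The ranges of the arms separated in 0 of the members tested in each of the 5 comparisons of PET with control, beside 0% of all features tested in colon, lung and day 28 stool, 0.217% in oral swabs and 0.275% in week 1 stool.

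The sites were compared at day 28 with 12 libraries each. The edgeR and DESeq2 fits took the arm as a covariate, and the permutation test between sites did not use the arm. Each comparison used the same 12 stool libraries, so the 3 comparisons are not independent of each other. The filter took the libraries of both sites together. A feature found only or almost only at 1 site could therefore enter through that site and be called in 1 direction only. Lactobacillus had a median share of 0.351% in colon (0.0931 to 40.7%), 0.442% in lung (0.0281 to 3.78%) and 0.215% in oral swabs (0.0703 to 2.63%), against 4.90% in stool (3.49 to 10.1%). Every oral swab library, all lung libraries but PET library 5, and all colon libraries but control libraries 1 and 2 lay below every stool library. Bifidobacterium had a median share of 0.0326% in colon (0.0103 to 0.557%), 0.439% in lung (0 to 4.31%) and 0.0358% in oral swabs (0.00497 to 2.81%), against 0 in stool, where 4 of 12 libraries held it and the highest share was 0.0317%. The ranges of Bifidobacterium in colon, lung and oral swab each overlapped that in stool.

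Bifidobacterium was higher than in stool at each of the other sites, with log2 differences of 6.94 ± 2.11 in colon (edgeR adjusted p = 0.0112), 8.17 ± 1.74 in lung (adjusted p = 7.37e-05) and 10.15 ± 1.70 in oral swabs (adjusted p = 2.56e-05). Calls were common in these comparisons: 32% of all 175 genera in colon against stool, 83.8% of 260 in lung and 70.3% of 202 in oral swabs. The median genus itself had a log2 difference of 1.59 in colon, 6.34 in lung and 6.25 in oral swabs, so the distance of Bifidobacterium is to be read against these. By the permutation test on shares, with 100000 resamples, the differences were 7.07 in colon (adjusted p = 5.47e-05), 9.97 in lung (adjusted p = 1.67e-05) and 7.20 in oral swabs (adjusted p = 3.61e-05), beside medians of 0.93, 4.91 and 1.53 over all genera. These differences and medians also carry library depth, since 0 counts score higher in shallow libraries in that test. With PET colon library 5, PET lung library 5 or PET oral swab library 2 left out, edgeR gave 8.08, 7.62 and 9.27 with adjusted p-values of 0.000708, 0.000129 and 1.90e-05.

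Lactobacillus was lower in lung than in stool, with a log2 difference of -3.88 ± 0.70 (edgeR adjusted p = 8.34e-06) and -3.72 by the permutation test (adjusted p = 1.67e-05). In colon the edgeR difference was -0.53 ± 0.81 (adjusted p = 0.666) with all libraries and -1.44 without the highest colon library (adjusted p = 0.0455), and the permutation test gave -3.36 with all libraries (adjusted p = 0.00139). In oral swabs the answer depended on the scaling. TMM gave 0.19 ± 0.49 (adjusted p = 0.741), the variant of TMM that keeps singly detected genera gave -1.96 (adjusted p = 0.00471), library totals gave -3.30, and the permutation test gave -4.32 (adjusted p = 3.61e-05). Scaling by library totals in place of TMM moved the median of all genera by -3.15 in that comparison, by -1.44 in colon and by 0.99 in lung.

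**Figure D5:**
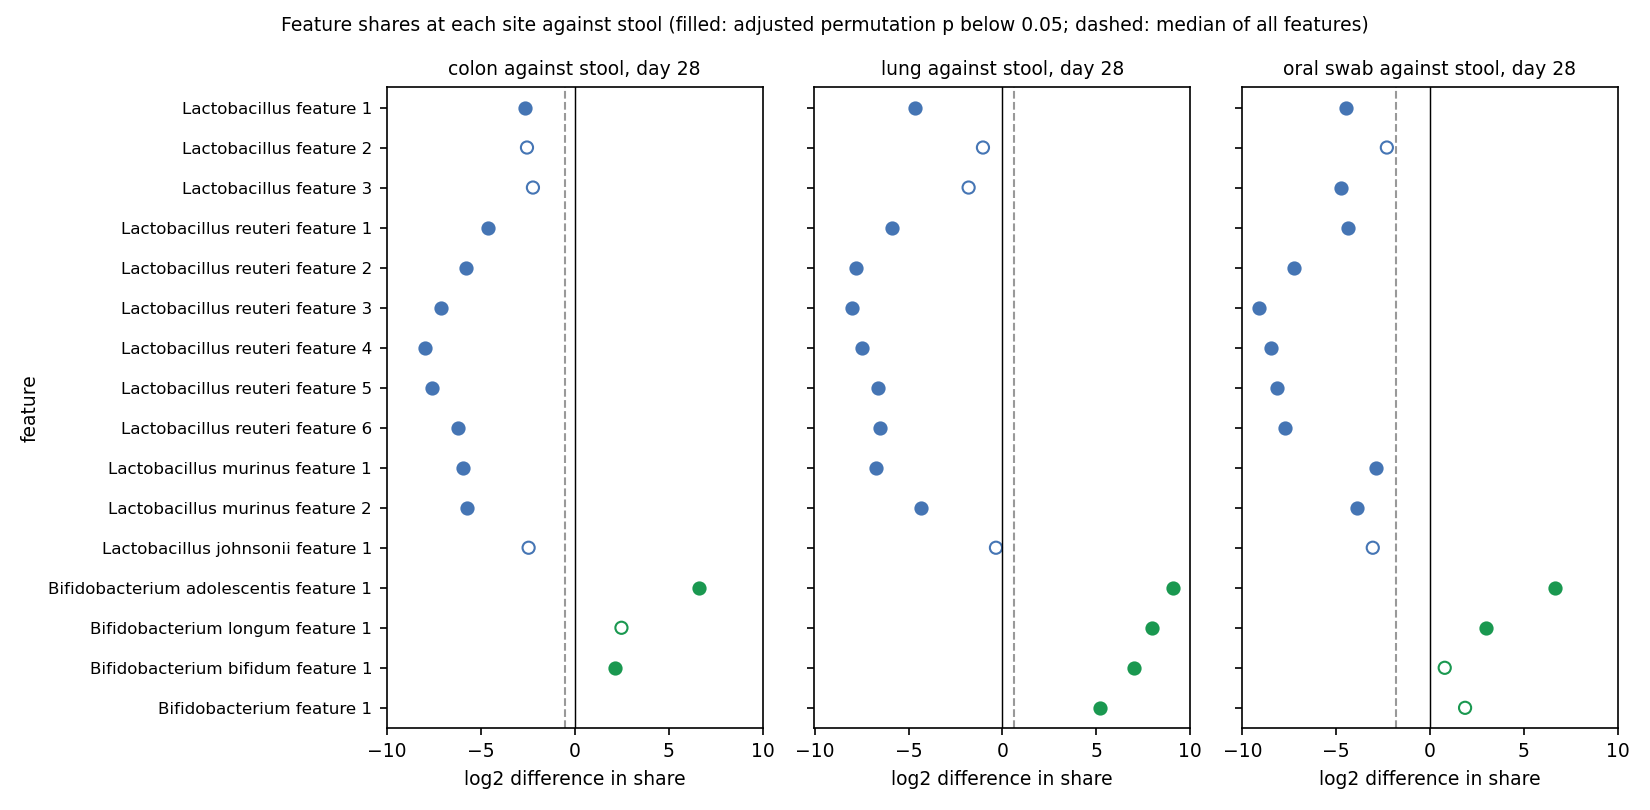
Log2 difference in mean log share of 16 features in colon, lung and oral swab libraries against stool at day 28 (x axis), with 12 libraries at each site; Lactobacillus features are blue and Bifidobacterium features green, filled points have an adjusted permutation p below 0.05, and the dashed line is the median of all features tested. The L. reuteri features lie to the left of 0 and the B. adolescentis feature to the right in all 3 panels, at 6.61 in colon, 9.10 in lung and 6.63 in oral swabs.

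The features did not all follow their genera: in lung, L. sakei feature 1 was called higher although Lactobacillus was lower there. In colon against stool edgeR called 6 of 18 members, 2 higher and 4 lower, where 19.1% of all 960 features were called, 4.38% higher and 14.7% lower. The 2 higher were B. adolescentis feature 1 (6.54 ± 2.49, adjusted p = 0.0480; 0.0516 without the highest colon library) and B. longum feature 2 (8.32 ± 1.88, adjusted p = 0.00162). Both are bifidobacteria, which had few or no stool counts and could hardly be called lower. The 4 lower were L. reuteri features 4 and 5, L. murinus feature 2 and L. johnsonii feature 1. The last of these had counts in no colon library and in 6 of 12 stool libraries, so it could be called lower only. The permutation test called 12 of the 18, 3 higher and 9 lower, where it called 34.8% of all features, 16.7% higher and 18.1% lower. The median edgeR log2 difference in colon was -2.11 over all features and -3.67 over the members.

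In lung against stool edgeR called 18 of 23 members, 8 higher and 10 lower, where 90.2% of all 1157 features were called, 32.3% higher and 57.9% lower. The median edgeR log2 difference was -6.22 over all features and -0.996 over the members. The permutation test called 18 of the 23, 9 higher and 9 lower, where it called 60.2% of all features, 38.5% higher and 21.7% lower. The higher ones under edgeR were 7 bifidobacteria and L. sakei feature 1. Among them B. adolescentis feature 1 had counts in 10 of 12 lung and 2 of 12 stool libraries (8.53 ± 2.83, adjusted p = 0.00529), and B. bifidum feature 1, from a species that feeds on mucin and milk sugars, in 9 of 12 lung and 1 of 12 stool libraries (6.63 ± 2.55, adjusted p = 0.0145). The lower ones were all lactobacilli, among them Lactobacillus feature 1 (-3.84 ± 1.41, adjusted p = 0.0111) and L. reuteri features 3, 4 and 6, which had no count in any lung library. With no lung count, L. reuteri features 3, 4 and 6 could be called lower only. Bifidobacteria had few or no stool counts, so the 7 entered the filter mainly through lung and could hardly be called lower. The call of L. sakei feature 1 was lost in 1 of the 4 alternatives that tested it.

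In oral swabs against stool edgeR called 10 of 21 members, 8 higher and 2 lower, where 56.1% of all 1009 features were called, 25.4% higher and 30.7% lower. The median edgeR log2 difference was -1.91 over all features and -0.54 over the members. B. adolescentis feature 1 was again among the higher ones, with counts in 11 of 12 oral and 2 of 12 stool libraries (11.92 ± 2.48, adjusted p = 0.000609). With so few stool libraries holding it, this feature could hardly be called lower. The permutation test called 15, 5 higher and 10 lower, where it called 54.1% of all features, 19.4% higher and 34.7% lower. The L. murinus call turned with the scaling: edgeR with TMM put its feature 1 at 2.95 ± 1.07 (adjusted p = 0.0219), library totals at -0.39, and the permutation test at -2.87 (adjusted p = 0.0322). L. reuteri feature 9, at 3.46 ± 1.49 with TMM (adjusted p = 0.0486), stood at -1.11 in the permutation test (adjusted p = 0.268).

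Within the genus the mix of lactobacilli also differed by site. Over libraries with at least 100 Lactobacillus counts, L. reuteri made up a median of 15% of the genus in colon (10 libraries), 11.8% in lung (8 libraries) and 23.5% in oral swabs (12 libraries), against 35.1% in stool at day 28. L. murinus made up a median of 0.908% in colon, 0.0484% in lung and 18.3% in oral swabs, where it ran from 1.12 to 84.9%, against 4.81% in stool. Features without a species name made up 81.9% in colon, 69.3% in lung and 49.3% in oral swabs, against 58.5% in stool. These parts of a whole were not tested. Within Bifidobacterium, B. adolescentis made up a median of 66.7% in colon (3 libraries), 50.6% in lung (10 libraries) and 60.7% in oral swabs (9 libraries), and 1 day 28 stool library had enough counts to say.

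The leading stool features were set beside 43 other features with a mean of at least 0.5% in day 28 stool. Lactobacillus feature 1 had a median share in colon, lung and oral swabs of 9.89, 4.56 and 2.75% of its stool mean of 2.86%, and L. reuteri feature 1 of 5.27, 1.32 and 3.82% of its own. The 43 other features had medians of 1.68, 0 and 2.10%. Among the 45, Lactobacillus feature 1 ranked 7 in colon, 2 in lung and 19 in oral swabs, and L. reuteri feature 1 ranked 12, 4 and 12.

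Group medians of Lactobacillaceae features per library were also higher in stool than in the other sample types. Single libraries overlapped: control colon library 2 and control oral swab library 2 each held 12, and control day 28 stool library 3 held 10. Day 28 stool held a median of 15.5 Lactobacillaceae features in PET and 14 in control libraries. Colon held 3 in PET and 6 in control, lung 4 in PET and 5.5 in control, and oral swabs 5 in PET and 7 in control. At an equal depth of 10083 counts the expected numbers were 12.2 in PET and 11.2 in control stool, 2.52 and 5.35 in PET and control colon, 3.48 and 3.74 in PET and control lung, and 3.63 and 5.05 in PET and control swabs. These numbers were not tested.

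Genera that also make or use lactate were counted in the same fits. Of 9 other genera of lactic acid bacteria 8 are in the table, and of 9 genera known to use lactate 7 are. In PET against control colon, 1 of 3 lactic acid genera tested was called, Gemella, a coccus of mouth and gut, and 3 of 7 lactate users, Megasphaera, Selenomonas and Veillonella, all higher in PET. That stands beside 15.6% of all genera there, 13.5% higher. The median log2 difference was 1.30 over the lactic acid genera tested and 0.38 over the lactate users, beside 0.57 over all genera. How these calls depend on control colon library 2 was not examined. In the other comparisons of PET with control and in the stool time contrasts, 0 of either list was called. Against stool, 2 of 3 lactic acid genera and 5 of 7 lactate users were higher in colon, 6 of 6 and 6 of 7 in lung, and 2 of 2 and 6 of 7 in oral swabs, and 0 were lower at any of these sites. Of all genera tested, 28% were called higher in colon, 65.8% in lung and 56.9% in oral swabs.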

How the data were processed

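Bacterial 16S V3 to V4 amplicons were sequenced from the 60 libraries. The deposited feature table holds whole-number counts with no normalization, per the file headers built from a biom file, and the deposited taxonomy gives the classifier confidence as a fraction. Bowtie2, cutadapt and GRCm39 stand, without versions, in the submitters' processing notes. Which denoiser, classifier and taxonomy database were used is not given in the sources used here. Of 8574 features, 7922 were prokaryote (99.3% of counts) and were kept.

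Members and lists were chosen with earlier results of these data known. Counts per feature, and summed by genus, were tested with edgeR 4.0.16 (R 4.3.3): quasi-likelihood F test, TMM, Benjamini-Hochberg over all features or genera tested, threshold 0.05, with a total of 10 counts and counts in 3 libraries required. The fits were tested on simulated data. Alternatives were TMMwsp, library totals, DESeq2 1.42.0, limma 3.58.1 on centred log ratios, filters, each library left out, and permutation of log2((count + 0.5)/(total + 1)), exact over 924 arrangements between arms and with 100000 resamples between sites. All permutation tests were two-sided. In them a 0 count scores higher in a library with a lower total. Named are all member genera, features of at least 0.1% in a group mean (up to 20), features with a species name in 3 libraries, and features past the threshold. L. ruminis in PET lung library 5 was singled out after its values were seen.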

Additional observations from a re-analysis of the deposited data

Results flagged for a closer look

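In 44 of 74 sets of 6 libraries examined, 1 library lay further from the next than Dixon's 95% critical value of 0.625 of the range allows. Chance gives that in about 1 in 20 sets of normally distributed values; these shares are skewed and some are 0, so that rate does not hold for them as it stands. Shares are in percent of prokaryote counts. Taxa of 1 library share its total, and a species label is part of its genus.

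Control colon library 2 was highest for Lactobacillus (40.7%), its feature 1 (33.3%) and feature 2 (0.751%), L. reuteri (6.31%), L. murinus (0.201%), Bifidobacterium (0.290%), B. adolescentis (0.112%) and B. longum (0.118%). In the same tissue PET library 5 was highest for Bifidobacterium (0.557%) and B. adolescentis (0.398%), and PET library 6 for L. reuteri (0.116%).

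PET lung library 5 was highest for Lactobacillus (3.78%), L. reuteri (0.692%), Bifidobacterium (4.31%), B. adolescentis (2.91%), B. longum (0.318%) and B. bifidum (0.212%). Control lung library 3 stood apart for L. reuteri (0.338%) and control lung library 1 for Lactobacillus feature 2 (1.56%).

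Among oral swabs, PET library 5 was highest for Lactobacillus (2.17%), its feature 1 (0.752%) and feature 2 (0.0720%), L. murinus (1.08%) and L. reuteri (0.231%). PET library 2 was highest for Bifidobacterium (2.81%), B. adolescentis (2.67%) and B. longum (0.0833%). Control library 2 was highest for Lactobacillus (2.63%), its feature 1 (0.491%), L. murinus (1.51%) and L. reuteri (0.603%), control library 4 for Bifidobacterium (0.267%) and B. adolescentis (0.256%), and control library 6 for B. longum (0.0582%).

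In stool, PET week 1 library 6 was highest for Bifidobacterium (0.0470%), B. adolescentis (0.0205%), B. longum (0.0167%), L. murinus (0.234%) and Lactobacillus feature 2 (1.65%). Control week 1 library 1 stood apart for Lactobacillus feature 1 (3.65%) and control week 1 library 2 for feature 2 (4.68%). At day 28, control stool library 4 stood apart for Lactobacillus feature 2 (2.25%), and control stool library 1 for Bifidobacterium (0.0317%) and B. longum (0.0116%).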

How the results depend on the processing

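Of the alternative values computed for counts of calls, 221 stayed within 1.5 times the reported count and 35 did not. Most of the 221 were counts of 0 that stayed 0, as in every comparison of PET with control outside colon. For member features in PET against control colon, 3 of 19 alternatives stayed and 16 did not. In PET against control colon, the 1 member feature called became 2 with TMMwsp and 0 with the stricter filter, with no filter, with limma on centred log ratios and with the exact permutation test, and leaving out each library gave 0 to 1, with 0 in 11 of 12 fits. The 1 genus called there became 0 with limma and the exact permutation test, and leaving out each library gave 0 to 1, with 0 without control library 2. DESeq2 called 1 member feature in each of the 3 stool time contrasts and 1 genus in the PET change, where edgeR called 0. In colon against stool the 6 features became 12 with DESeq2 and with permutation, and the 1 genus became 2 with DESeq2, with permutation and without the highest colon library. In oral swabs against stool the 10 features became 16 with TMMwsp and with library totals and 5 with the stricter filter, and the 1 genus became 2 with TMMwsp, DESeq2, library totals and permutation.

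Several signs turned. Lactobacillus in oral swabs against stool was -1.96 with TMMwsp, -2.71 with DESeq2, -0.15 with the stricter filter, -3.30 with library totals and -4.32 by permutation; L. murinus feature 1 there was -0.39 with library totals and -2.87 by permutation, and L. reuteri feature 9 was -1.11 by permutation. None of the PET differences whose sign turned had been called. Bifidobacterium in colon was -0.11 with limma, and leaving out each library gave -0.037 (without PET library 5) to 0.89. In lung, Lactobacillus was 0.21 with library totals and, leaving out each library, -1.10 to 0.27, with 0.0080, 0.05 and 0.27 without PET library 2, PET library 6 and control library 1, and Bifidobacterium was 0.63 with limma, 0.98 by permutation and -1.11 to 0.35 leaving out each library, with 0.35 without control library 1. In oral swabs, Lactobacillus was 0.13 with DESeq2, -0.94 to 1.31 leaving out each library, with 0.15, 0.24 and 0.17 without PET libraries 1, 2 and 6 and 1.31 without control library 2, and Bifidobacterium was -1.19 (without PET library 2) to 2.30. The control stool change of Bifidobacterium was -0.26 with DESeq2. The cause of these changes was not tested.

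Library totals in the time and site comparisons, permutation between sites and the site fits without PET lung library 5, PET oral swab library 2 or PET colon library 5 were added after seeing the data. No paired analysis was possible because the number in each library's label occurs in no other group, and nothing in the labels ties libraries of different groups to 1 animal. Library 6 of each arm in day 28 stool and control lung libraries 5 and 6 form a later block of library numbers. The labels do not give its meaning. With that block left out, edgeR called 0 member features and 0 member genera between the arms in day 28 stool and in lung. Shares near the limit of a library's depth, as for Bifidobacterium in stool, rest on few counts.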
